A study of Mus musculus with 4 samples.

Results

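The 9 genes described here, *Sox1*, *Pax6*, *Pax3*, *Sox9*, *Nes*, *Hes5*, *Neurog2*, *Tubb3* and *Map2*, mark successive steps of neural development and were chosen by name, with 1 match each among the 53379 genes of the RNA tables. In cells at population doubling 800 (PD800), the RNA of *Sox1*, *Pax6* and *Tubb3* was higher than at population doubling 100 (PD100), that of *Nes* was lower, and that of *Map2* did not pass the test. The other 4 genes had at most 18 read pairs in any library. The genes therefore did not move as one group, and they spanned both progenitor and neuronal markers among those that rose.

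All cells came from DKO741, 1 *Terc*-/- line of E14 mouse embryonic stem cells (mESCs), in which both alleles of the telomerase RNA gene were disrupted by targeting (the neo cassette of the first allele was removed with Cre), so that both groups carry the disruption. PD100 cells are pre-ALT (before alternative lengthening of telomeres, a telomerase-independent way of keeping chromosome ends) and PD800 cells are post-ALT, with 2 libraries of each. The labels also call the time points passages, the line was maintained on mouse embryonic fibroblast feeders but harvested feeder-free, and since both groups are 1 line, time in culture and ALT cannot be told apart. The libraries are described in the paper as biological duplicates, and nothing further ties them to separate cultures.

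Neural development begins in the neural plate, where transcription factors of the SOX and PAX families set up dividing progenitors. Notch signalling keeps progenitors dividing through its target HES5, while proneural factors such as neurogenin 2 push them out of the cycle, and the resulting neurons switch their cytoskeleton to neuronal tubulin and microtubule-associated proteins. Embryonic stem cells can take this path when self-renewal signals are withdrawn.

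The total expected count, which is the number of read pairs that RSEM assigned to genes, lay between 32454121 and 38492149 per library. Mitochondrial and small RNA genes took 22.04 to 23.4% of it at PD100 and 27.7 to 28.3% at PD800, and protein-coding genes 72.8 to 73.3% and 68.5 to 68.8%, and the part of this shift in the results below was not tested. A floor of 3 counts corresponded to 0.0743 to 0.0933 CPM (counts relative to the library total, scaled by TMM factors), which covers counting error only. *Terc* had 1 count in PD100 replicate 1 and 0 in the other 3 libraries. Of the 10 embryonic stem cell markers, all passed the expression filter, and their summed level was 2140 to 2472 CPM at PD100 and 4274 to 4363 CPM at PD800. The genes were compared in a fit over 19148 genes with edgeR's quasi-likelihood test, and a gene was called at a Benjamini-Hochberg adjusted p under 0.01 together with a fold change over 2. In that fit 6.28% of genes were called higher and 8.81% lower at PD800. For a single gene in 2 PD100 and 2 PD800 libraries, the smallest two-sided p of an exact permutation test is 0.333, and the p-values below use the spread that edgeR pools across genes.

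The 300 bases around the transcription start, 250 before and 50 after, are shown for *Sox1* and *Tubb3*, which rose together, for *Nes*, which fell, and for *Hes5*, a known direct target of Notch. The windows are RefSeq entries of GRCm38.p6, all on the plus strand, and lie at chr8:12395269-12395568 for *Sox1*, chr8:123411303-123411602 for *Tubb3*, chr3:87970843-87971142 for *Nes* and chr4:154960673-154960972 for *Hes5*. Capitals mark ATGCAAAT, the octamer bound by POU factors, in *Sox1*, CATTGT, a core of SOX binding sites, in *Tubb3*, and GTGGGAA, the site of the Notch effector RBPJ, in *Hes5*, each searched on both strands.
Sox1: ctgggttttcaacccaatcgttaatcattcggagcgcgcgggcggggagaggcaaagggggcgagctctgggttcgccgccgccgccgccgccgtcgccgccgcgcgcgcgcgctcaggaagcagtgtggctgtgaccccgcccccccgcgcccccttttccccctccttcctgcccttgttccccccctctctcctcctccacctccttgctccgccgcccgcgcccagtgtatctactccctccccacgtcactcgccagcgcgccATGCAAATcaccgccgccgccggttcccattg
Tubb3: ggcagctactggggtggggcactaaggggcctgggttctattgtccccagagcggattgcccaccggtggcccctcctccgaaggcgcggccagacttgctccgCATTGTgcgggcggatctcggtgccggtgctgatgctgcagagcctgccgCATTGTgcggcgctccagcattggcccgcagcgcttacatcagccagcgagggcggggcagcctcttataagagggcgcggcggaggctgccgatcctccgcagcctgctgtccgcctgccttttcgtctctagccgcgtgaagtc
Nes: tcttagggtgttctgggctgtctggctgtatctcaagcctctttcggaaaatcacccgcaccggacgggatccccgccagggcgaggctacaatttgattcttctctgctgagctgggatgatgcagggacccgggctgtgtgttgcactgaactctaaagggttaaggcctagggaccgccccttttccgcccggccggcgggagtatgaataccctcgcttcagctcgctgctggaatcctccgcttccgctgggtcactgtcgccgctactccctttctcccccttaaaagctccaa
Hes5: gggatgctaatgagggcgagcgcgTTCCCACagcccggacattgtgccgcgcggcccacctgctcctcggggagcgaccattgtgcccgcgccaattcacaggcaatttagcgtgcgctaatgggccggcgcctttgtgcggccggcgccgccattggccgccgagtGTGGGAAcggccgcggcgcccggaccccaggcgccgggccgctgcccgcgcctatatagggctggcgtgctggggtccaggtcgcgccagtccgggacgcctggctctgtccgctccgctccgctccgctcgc

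RefSeq windows were found for 7 of the 9 genes, 8 windows in all because *Pax6* has 2. The octamer was present in *Sox1* alone among these windows, beginning at base 19 from the RefSeq start, and in 1.74% of all 32851 windows. CATTGT stood at 2 places in *Tubb3* (146 and 96 bases before the start) and at 2 in *Hes5*, and in 12.6% of all windows. The RBPJ letters stood at 2 places in *Hes5*, beginning 226 and 83 bases before the start, and in 6.38% of all windows. The *Nes* window held none of the 3 motifs. These distances are from the RefSeq start, and the GENCODE gene start used for the gene coordinates lies 224 bases earlier for *Sox1*, 129 bases earlier for *Tubb3* and 15 bases earlier for *Nes*, and is the same for *Hes5*. The second CATTGT of *Tubb3* and the octamer of *Sox1* thus lie after the GENCODE start. The windows held 37 CpG dinucleotides in *Sox1*, 26 in *Tubb3*, 18 in *Nes* and 41 in *Hes5* against a median of 7 and an upper quartile of 20 over all windows, so that *Nes* lay under that quartile. The motifs were chosen with the letters in view, and a match is a description, not a bound site.

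Per unit of transcript length (TPM, as deposited), *Tubb3*, *Nes*, *Map2*, *Pax6* and *Sox1* kept the same order of group means at PD100 and PD800, while the distances between them differed. At PD100, *Tubb3* (16.3 ± 2.14 TPM, SD, n = 2) and *Nes* (10.8 ± 1.51 TPM, SD, n = 2) stood well above *Map2* (2.06 ± 0.778 TPM, SD, n = 2) and *Pax6* (0.350 ± 0.0283 TPM, SD, n = 2). At PD800, *Tubb3* was at 32.9 ± 0.622 TPM (SD, n = 2), and *Nes*, at 2.49 and 2.60 TPM, overlapped with *Map2*, at 2.57 and 1.51 TPM. The ratio of *Tubb3* to *Nes* in TPM went from 1.83 and 1.25 in the PD100 libraries to 13.4 and 12.5 in the PD800 libraries. *Sox1* and *Pax6* stayed under or near 1 TPM in every library, with a highest value of 0.50 TPM for *Sox1* and 1.04 TPM for *Pax6*, against a median of 2.79 TPM over the tested genes. *Hes5* overlapped with *Sox1* and *Pax3* at PD100, and with *Sox9* at PD800. *Sox9* and *Neurog2* were at or under 0.02 TPM in all 4 libraries, and *Pax3* did not exceed 0.11 TPM.

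**Figure D1:**
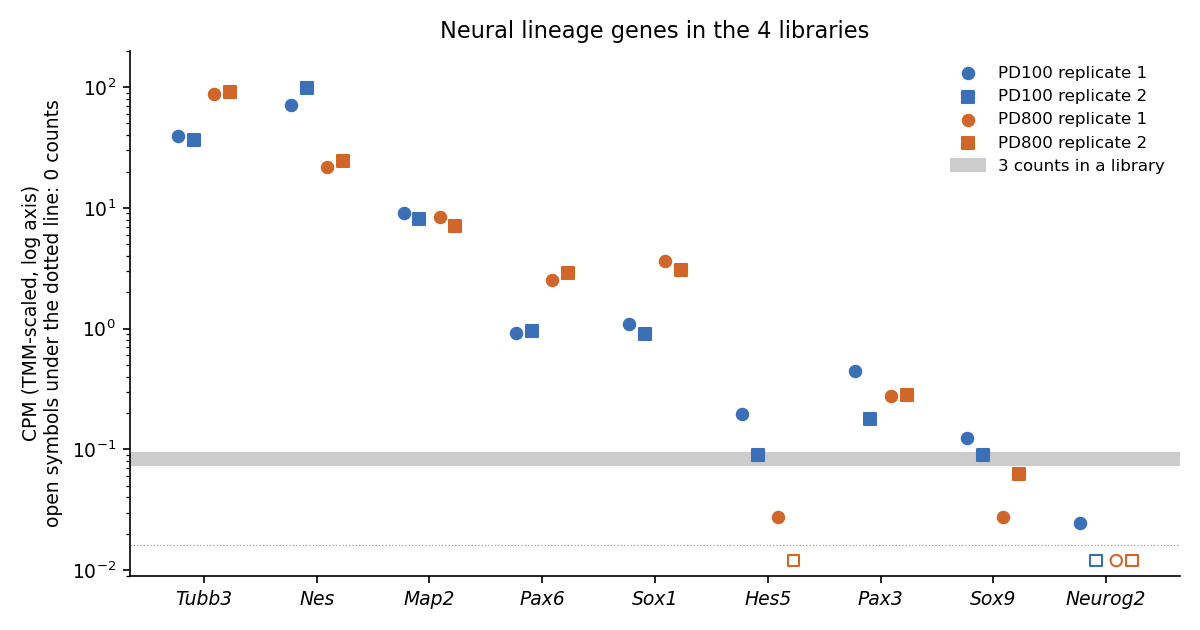
Level of the 9 genes in each library, as TMM-scaled CPM on a log axis, ordered by mean TPM. Circles are replicate 1 and squares replicate 2, open symbols are libraries with 0 counts, and the grey band is the level of 3 counts. The PD800 symbols lie above those of PD100 for *Tubb3*, *Pax6* and *Sox1* and below them for *Nes*, and *Neurog2* lies under the band. CPM is not scaled for length, so heights of different genes are not comparable.

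*Sox1* encodes a SOX transcription factor that is among the earliest markers of committed neuroectoderm. It is a single-exon gene on chromosome 8 (GRCm38, 12395295 to 12400126, plus strand). It had 44 and 30 expected counts at PD100 and 131 and 98 at PD800. Both PD800 values lay above both PD100 values, at 3.34 ± 0.420 CPM (SD, n = 2) against 0.994 ± 0.135 CPM (SD, n = 2). PD800 over PD100 came to 1.74 on the log2 scale, with a standard error (SE) of 0.22, a 95% interval of 1.20 to 2.28 and an edgeR adjusted p of 0.00162, or a 3.35-fold difference that is larger than the spread between replicates. *Sox1ot*, a transcript on the same strand that spans *Sox1* and shares no exon base with it, had 5 and 3 counts at PD100 and 13 in each PD800 library. The 40 tested genes nearest to *Sox1* (20 on each side) lay at a median log2 fold change of -0.58, with 9 called lower and 0 higher by edgeR's test. *Sox1* thus lay 2.32 above the median of its neighbours on the log2 scale.

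*Pax6* encodes a paired-box and homeobox factor of the neural tube, forebrain and eye. It lies on chromosome 2 (105668900 to 105697364, plus strand) and has 26 annotated transcripts. It had 37 and 32 counts at PD100 and 91 and 93 at PD800. The PD800 libraries were again the higher pair, at 2.71 ± 0.256 CPM (SD, n = 2) against 0.937 ± 0.0298 CPM (SD, n = 2). PD800 over PD100 came to 1.53 on the log2 scale, with SE 0.21, a 95% interval of 1.02 to 2.04 and an edgeR adjusted p of 0.00216. Without PD800 replicate 2 the log2 fold change was 1.43 and the call was lost (adjusted p = 0.0137). The antisense gene *Pax6os1*, which overlaps *Pax6* on the other strand, had 0 counts in all 4 libraries. The 40 neighbours of *Pax6* had a median log2 fold change of 0.11.

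*Pax3* and *Sox9* mark dorsal neural tube and neural crest, and *Sox9* also acts in glia and cartilage. *Pax3* had 18 and 6 counts at PD100 and 10 and 9 at PD800, and the groups overlapped. *Sox9* had 5 and 3 counts at PD100 and 1 and 2 at PD800. Neither gene passed the expression filter. When the filter was dropped, *Pax3* was at -0.20 on the log2 scale (SE 0.52, edgeR adjusted p = 0.812) and *Sox9* at -1.23 (SE 1.20, adjusted p = 0.529), so that a difference was not detectable at this depth. The 40 tested neighbours of *Sox9* on chromosome 11 had a median log2 fold change of 0.55, with 7 called higher and 1 lower.

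*Nes* encodes nestin, the intermediate filament protein of neural progenitors, which is also made by mesenchymal, endothelial and muscle precursor cells. It lies on chromosome 3 (87971078 to 87980451, plus strand). It had 2885 and 3276 counts at PD100 and 782 and 781 at PD800. These are 71.4 and 98.1 CPM at PD100 against 21.7 and 24.3 CPM at PD800, so the groups did not overlap although the PD100 replicates differed. *Nes* fell by 1.88 on the log2 scale (SE 0.16, edgeR adjusted p = 0.000425), a 3.68-fold difference. The 95% interval was -2.28 to -1.48, and *Nes* was the 1 gene among the 9 that stayed called under every alternative. Its 40 neighbours had a median log2 fold change of 0.02, with 2 called in each direction.

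Several marker lists were also lower at PD800, where 6.28% of all genes were called higher and 8.81% lower. Of 10 fibroblast markers, 9 were tested and 5 were called lower, the median log2 fold change was -2.33, and the list summed to 67.1 and 92.0 CPM at PD100 and to 27.3 and 27.9 CPM at PD800. Between the PD100 libraries, replicate 2 was 1.37 times replicate 1 for *Nes* and 1.37 times for the fibroblast sum. The ratio was 1.16 for the stem cell sum, 1.10 for the primitive endoderm and trophoblast sums and 0.919 for the neural crest sum. Fibroblast markers differed in this, with *Col1a1* at 13.0 and 24.4 CPM at PD100, *Thy1* at 6.21 and 6.35 CPM and *Postn* at 3.14 and 2.72 CPM. *Id1*, outside these lists, was at 69.0 and 96.3 CPM at PD100. *Thy1* and *Postn* were named after their values were seen. The collagens *Col1a1* (526 and 815 counts at PD100, 70 and 81 at PD800), *Col1a2* and *Col3a1* were among the fibroblast markers called lower. The 1 marker of the 10 that was not tested, *Lum*, named after its values were seen, had at most 1 count in any library, and the other 9 passed the filter. All 10 primitive endoderm markers were called lower, with a median of -3.47, and their sum was 2364 to 2610 CPM at PD100 and 239 to 250 CPM at PD800. Of these, *Foxa2*, *Sox17* and *Pdgfra* fell most, and *Foxa2* had 1 count in each PD800 library. Of 10 trophoblast markers, 9 were tested, 6 were called lower and 1 higher, with a median log2 fold change of -1.44. The sum of that list was 738 to 811 CPM at PD100 and 72.6 to 73.1 CPM at PD800, and at PD100 most of it was the keratins *Krt8* and *Krt18*, which other epithelia also make. The part of these cell types in the level of *Nes* was not tested, and in bulk RNA fewer cells of a type and less RNA per cell cannot be told apart. The paper also reports single-cell RNA data, not used here, in which PD100 and PD800 cells formed distinct populations, each of high homogeneity.

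**Figure D2:**
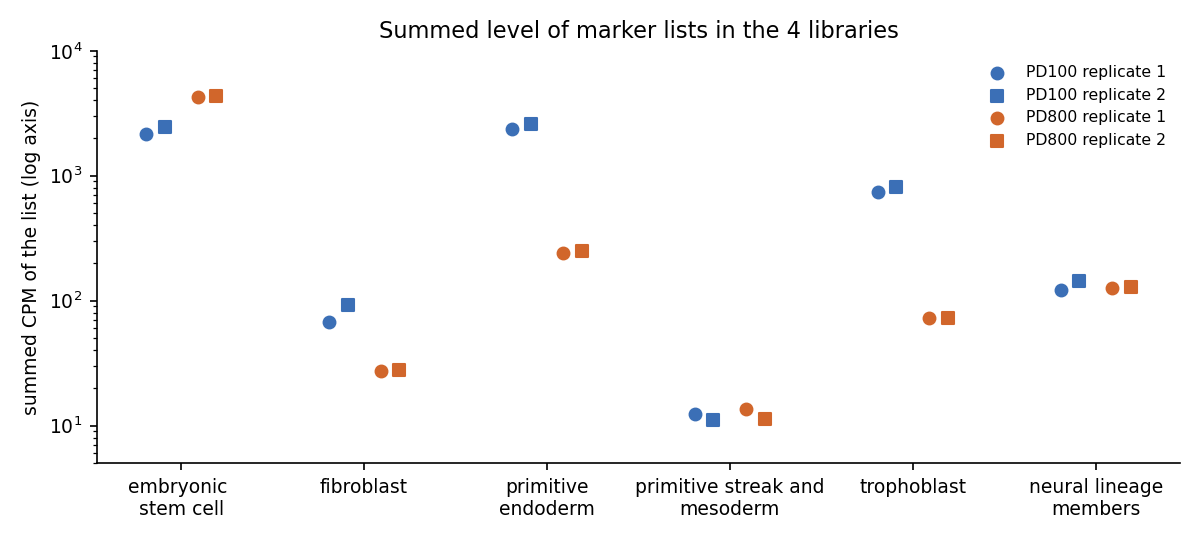
Summed CPM of each marker list and of the 9 neural lineage genes in each library, on a log axis. Circles are replicate 1 and squares replicate 2. The primitive endoderm sum lies at 2364 to 2610 CPM at PD100 and at 239 to 250 CPM at PD800, while the neural lineage sum overlaps between the groups (122 to 145 CPM against 125 to 129 CPM).

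*Hes5* encodes a repressor that Notch switches on in neural progenitors. It lies 1.39 Mb from the last annotated base of chromosome 4 (154960923 to 154962371, plus strand). It had 8 and 3 counts at PD100 and 1 and 0 at PD800. The groups did not overlap, but PD100 replicate 2 was at the floor of 3 counts and both PD800 libraries were under it, so no fold is given. *Hes5* did not pass the filter, and without the filter its adjusted p was 0.0727 in edgeR's test (unadjusted p = 0.0246). *Gm20421*, on the other strand, shares 433 exon bases with *Hes5* and had 1 and 2 counts at PD100 and 0 at PD800, and since the strand setting of the counting is not given in the sources used here, reads of the pair cannot be told apart.

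Most other Notch pathway genes passed the filter. Of 36 listed ligands, receptors, modifiers and effectors, 32 were tested, 2 were called higher (6.25%) and 5 lower (15.6%), against 6.28% and 8.81% of all genes, and the median log2 fold change was -0.12. The ligand genes *Dll1* (210 and 193 counts at PD100, 42.8 and 64 at PD800) and *Dll3* (158 and 148 against 44 and 49) were lower, with log2 fold changes of -1.79 and -1.60 (adjusted p = 0.00249 and 0.00160 in edgeR). *Lfng*, which adds sugars that tune the receptor, went from 314 and 276 counts to 27 at PD800 in both replicates, -3.33 on the log2 scale (adjusted p = 8.27e-05). *Maml3*, a coactivator, and *Hes6*, a HES protein that opposes HES1, were the other genes called lower (log2 fold changes of -2.44 and -1.06). Of the called genes, *Dll3* and *Hes6* were named after their values were seen. *Notch4* and *Rfng* were called higher, at 1.85 and 1.50 on the log2 scale. *Rbpj* itself, the DNA-binding effector, was at 190 ± 13.8 CPM (SD, n = 2) at PD100 and 342 ± 7.35 CPM (SD, n = 2) at PD800, which passed the adjusted p (0.000702 in edgeR) but not the 2-fold threshold, and *Hes1* was at 0.50 on the log2 scale (adjusted p = 0.0274). Both were also chosen after their values were seen.

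*Neurog2*, a proneural bHLH factor that commits progenitors to the neuronal fate, had 1 count in PD100 replicate 1 and 0 in the other 3 libraries. Both groups were under the floor, so no fold is given. Of 18 other bHLH factors and partners, 10 were tested, with a median log2 fold change of 0.08. Of the tested genes, 1 was called higher (10%) and 1 lower (10%), against 6.28% and 8.81% of all genes. Of the 18, 5 had at most 3 counts in every library, and *Neurod6* had 0 in all 4. Those 5 are the proneural or neuronal factors *Neurog1*, *Neurod2*, *Neurod4*, *Neurod6* and *Ptf1a*, named after their values were seen. Other proneural genes of the list were tested and not called. *Neurod1* had 378 and 264 counts at PD100 and 299 and 232 at PD800, and *Neurog3* had 29.3 and 18.7 against 11.3 and 6.11. *Neurod1* and *Neurog3* were also named after their values were seen. The 2 genes called, *Id1* and *Id4*, encode inhibitory factors, while *Id2* and *Id3*, named after their values were seen, were not called (log2 fold changes of 0.11 and -0.59). *Id1* was at 69.0 and 96.3 CPM at PD100 and at 25.3 and 27.4 CPM at PD800, which is -1.65 on the log2 scale (SE 0.17, adjusted p = 0.000685 in edgeR). *Id4*, with 120 and 92 counts at PD100 and 235 and 251 at PD800, moved the other way, by 1.32 on the log2 scale (SE 0.16, adjusted p = 0.00126).

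*Tubb3* encodes class III β-tubulin, a microtubule subunit used as a neuronal marker. It lies on chromosome 8 (123411424 to 123422015, plus strand), 5.86 Mb from the last annotated base of the chromosome. It had 1576 and 1208 counts at PD100 and 3178 and 2928 at PD800. The replicates were close to each other, at 37.6 ± 2.01 CPM (SD, n = 2) at PD100 and 89.7 ± 1.92 CPM (SD, n = 2) at PD800. PD800 over PD100 came to 1.25 on the log2 scale, with SE 0.08, a 95% interval of 1.06 to 1.45 and an edgeR adjusted p of 0.000146, or 2.39-fold. *Tubb3* lies within a much longer annotated gene of the same strand, *Gm20388* (119910841 to 124345722), but shares no exon base with it, and *Gm20388* was at -0.45 on the log2 scale (adjusted p = 0.0600). The 40 neighbours of *Tubb3* had a median log2 fold change of -0.29, with 8 called lower and 0 higher, so that *Tubb3*, like *Sox1*, was higher in a stretch where none of the 40 nearest tested genes was called higher.

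*Map2* encodes a microtubule-associated protein of dendrites. It lies on chromosome 1 (66175273 to 66442583, plus strand) and has 24 annotated transcripts. It had 369 and 271 counts at PD100 and 304 and 227 at PD800, and the groups overlapped. Its level was 8.62 ± 0.722 CPM (SD, n = 2) at PD100 and 7.76 ± 0.984 CPM (SD, n = 2) at PD800. PD800 over PD100 came to -0.15 on the log2 scale, with SE 0.13 and an edgeR adjusted p of 0.396, and its 95% interval, -0.48 to 0.18, leaves out a 2-fold change in either direction. The mean transcript length that RSEM estimated for *Map2*, weighted by isoform, was 2887 and 3926 bases in the PD100 libraries and 2280 and 3002 bases in the PD800 libraries. These lengths overlapped between the groups and lie well under the longest annotated isoform, *Map2-204*, of 6258 bases.

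**Figure D3:**
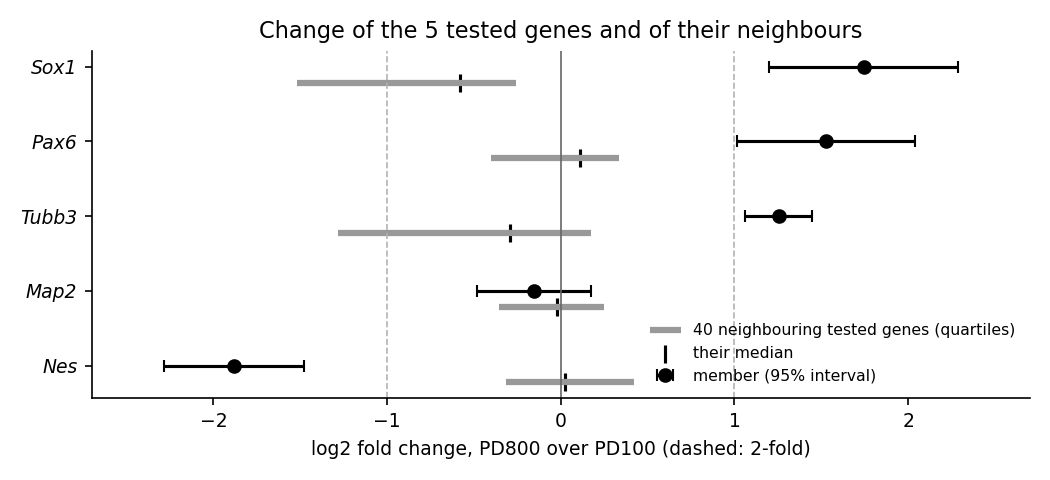
Log2 fold change (PD800 over PD100) of the 5 genes that passed the expression filter, with 95% intervals from edgeR's fit, above the quartiles and the median of the 40 tested genes nearest to each. The intervals of *Sox1*, *Pax6* and *Tubb3* start above 1, that of *Nes* ends below -1, and that of *Map2* spans 0.

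Of the 9 genes, 5 passed the filter, 3 were called higher and 1 lower, against 6.28% and 8.81% of all genes. The groups did not overlap in CPM for 6 of the 9, including *Sox9* and *Hes5*, while 73.7% of all tested genes did not overlap either. The fold changes of the 3 higher genes passed 2-fold as estimates, yet when a change over 2-fold was itself tested in the model 0 of the 3 were called by edgeR at an adjusted p under 0.01 and *Nes* was, although all 3 passed the test against no change. The adjusted p in that test was 0.0278 for *Sox1*, 0.0626 for *Pax6* and 0.0258 for *Tubb3*.

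Other genes of the neural plate and of dividing progenitors also went both ways. Of 41 listed, 26 were tested, with a median log2 fold change of 0.46. Of the tested genes, 6 were called higher (23.1%) and 3 lower (11.5%), against 6.28% and 8.81% of all genes. *Sall3*, a zinc finger gene of the developing nervous system, went from 41 and 40 counts at PD100 to 598 and 431 at PD800, which is 3.77 on the log2 scale (SE 0.18, adjusted p = 6.96e-05 in edgeR). *Ncam1*, the neural cell adhesion molecule, rose by 2.54 (from 7.31 ± 0.343 CPM to 42.6 ± 0.342 CPM, SD, n = 2), and *Zfp521*, a zinc finger gene that promotes neural differentiation of embryonic stem cells, rose by 2.39. The other genes called higher were *Sox21*, *Zic2* and *Zic5*, at 2.36, 1.99 and 1.59, named after their values were seen. The genes called lower were *Pou3f1* (1164 and 1082 counts at PD100, 130 and 163 at PD800, log2 fold change -2.82, SE 0.17, adjusted p = 0.000123), *Otx2* (-1.35) and *Prom1* (-1.33). *Pou3f1* and *Otx2* are also genes of the epiblast. *Sox2*, shared by pluripotent and neural cells and named after its values were seen, was at 135 ± 25.1 CPM (SD, n = 2) and 210 ± 2.47 CPM (SD, n = 2), for a log2 change of 0.63 (adjusted p = 0.0102).

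Genes of the neuronal cytoskeleton and synapse were likewise called in both directions. Of 35 listed, 32 were tested, with a median log2 fold change of 0.18. Of the tested genes, 3 were called higher (9.38%) and 5 lower (15.6%), against 6.28% and 8.81% of all genes. *Tubb2b*, another neuronal β-tubulin gene, rose beside *Tubb3* from 65.9 ± 10.7 CPM to 174 ± 4.77 CPM (SD, n = 2), which is 1.40 on the log2 scale (SE 0.12, adjusted p = 0.000421 in edgeR). *Stmn2*, a regulator of microtubule growth, rose by 1.04, and the synaptic vesicle gene *Syt1* rose by 3.19 from 11 and 7 counts to 74 and 79. *Ina*, an intermediate filament gene of neurons, fell by 1.81 (from 43.6 ± 1.95 CPM to 12.4 ± 0.259 CPM, SD, n = 2, adjusted p = 6.62e-05), and the neurofilament genes *Nefm* and *Nefl* were called lower at -2.34 and -1.04, while *Nefh* (-0.78) was not called, all 3 named after their values were seen. *Syp* (-2.53) and *Sox11* (-1.06) were the other genes called lower. Of the 35 genes, 1 had 0 counts in all 4 libraries, *Dcx*, which marks newly born neurons and was named after its values were seen.

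**Figure D4:**
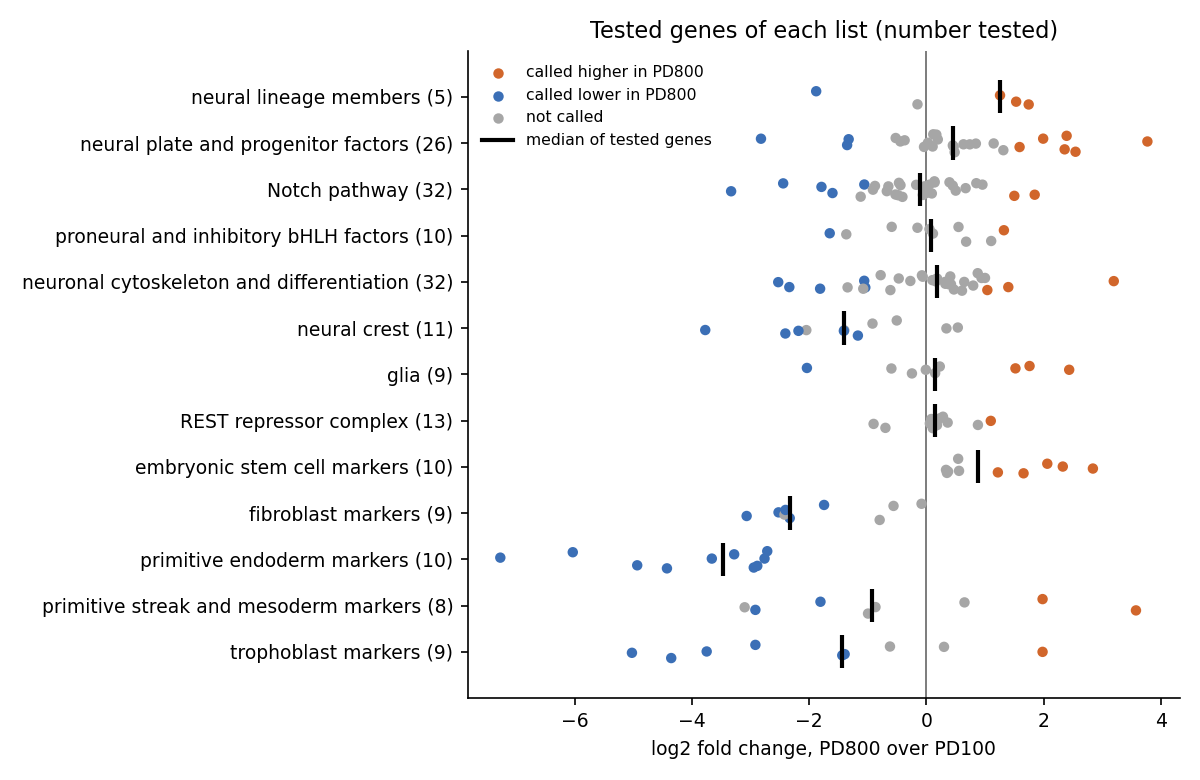
Log2 fold change (PD800 over PD100) of every tested gene of each list, 1 point per gene, with the median as a black bar and the number tested in brackets. Orange points were called higher and blue points lower at PD800. Points of the neural plate, Notch and neuronal lists lie on both sides of 0, while the called points of the neural crest, fibroblast and primitive endoderm lists lie below it.

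The neural crest and glial lists, which *Pax3* and *Sox9* also touch on, are given separately, and the difference between them was not tested. Of 14 neural crest genes, 11 were tested, with a median log2 fold change of -1.40. By edgeR's test 0 were called higher and 5 lower (45.5%), against 6.28% and 8.81% of all genes. *Ets1* had the lowest value (569 and 429 counts at PD100, 36 and 31 at PD800, log2 fold change -3.77, adjusted p = 4.81e-05), followed by *Snai1* (-2.41), and *Msx2* was at -1.41. *Msx1* (-2.18) and *Zeb2* (-1.17), named after their values were seen, complete the 5, and most of these genes also act in mesenchyme and endothelium. Of 12 glial genes, 9 were tested, 3 were called higher (33.3%) and 1 lower (11.1%), and the median was 0.15 on the log2 scale. Those called higher included the transcription factor gene *Nfib* (331 and 241 counts at PD100, 976 and 806 at PD800, log2 fold change 1.76) and the myelin gene *Mog* (1.52), and *Cspg4* was called lower at -2.04.

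The gene of REST, a repressor that keeps neuronal genes silent in other cells, was not called. *Rest*, chosen after its values were seen, was at 371 ± 5.41 CPM (SD, n = 2) at PD100 and 420 ± 4.18 CPM (SD, n = 2) at PD800, a log2 fold change of 0.18 (adjusted p = 0.103 in edgeR). Of 13 genes of REST and its cofactors, all were tested, and the median was 0.14. Of them, 1 was called higher (7.69%) and 0 lower, against 6.28% and 8.81% of all genes. The gene called was *Rcor1*, the corepressor CoREST, at 1.10 (1276 and 967 counts at PD100, 2368 and 2048 at PD800).

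Over the 7 neural lists together, which hold 169 genes beside the 9, 133 were tested, 16 were called higher (12%) and 20 lower (15%), against 6.28% and 8.81% of all genes, and the median log2 fold change was 0.10 against 0.01 for all genes. Of the 10 stem cell markers, 5 were called higher and 0 lower by edgeR's test, and the median was 0.89 on the log2 scale. *Klf4*, *Nanog* and *Esrrb* were the highest of them, at log2 fold changes of 2.84, 2.32 and 2.06. Of 9 markers of primitive streak and mesoderm, 8 were tested, 2 were called higher and 2 lower at a median of -0.93, and their sum was 11.2 to 12.5 CPM at PD100 and 11.3 to 13.5 CPM at PD800. *Eomes* was at 1.98 and *Hand1* and *Kdr* at -2.92 and -1.81, and *Gsc*, named after its values were seen, was at 3.57. *Eomes* and *Hand1* are also on the trophoblast list, so their calls count in both lists.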

How the data were processed

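The authors aligned 101 bp paired-end reads to mm10 with STAR 2.5.3a and deposited, for each gene and library, RSEM 1.3.0 expected counts (estimated read pairs, not scaled for depth, with reads of several genes divided between them), TPM (scaled for length and to a common total), FPKM, which was not used here, and the mean transcript length. Tool names and versions come from the submitters' processing notes, and the annotation release was not given in the sources used here. GENCODE M21 (GRCm38) supplied coordinates for 53274 of 53379 identifiers.

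Rounded expected counts were tested with the quasi-likelihood test of edgeR 4.0.16 in R 4.3.3, after TMM scaling and filterByExpr at a minimum count of 10, with Benjamini-Hochberg adjustment over 19148 genes. The population doubling given by the labels set the groups. CPM values and the floor of 3 counts use totals over all genes scaled by TMM factors. The procedure was tested on simulated data. Alternatives were DESeq2 1.42.0, other size factors and filters, protein-coding genes only, the replicate number as a block, limma 3.58.1 on log2(TPM + 1) and log2(TPM + 0.1), other thresholds, and each library left out in turn. Total counts of 32454121 to 38492149 set the depth.

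The 9 genes, the lists and the tests were chosen with earlier results of these data known. Genes named beside the 9 and *Terc* are, from each list, up to 3 called genes with the highest and 3 with the lowest log2 fold change at a mean of at least 1 CPM, and others are marked as chosen after their values were seen. One gene that this rule names is not reported here.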

Additional observations from a re-analysis of the deposited data

How the results depend on the processing

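The directions of the called neural lineage genes held under every alternative that gave them a value. Their log2 fold changes were 0.32 to 1.90 for *Sox1*, 0.56 to 1.62 for *Pax6*, -2.09 to -1.66 for *Nes* and 0.97 to 1.31 for *Tubb3*. *Map2* was called under none of the alternatives, at -0.29 to -0.01, so no direction is given for it. With a 2-fold change tested in the model, 386 genes were higher and 685 lower over all genes, 0 of the 9 were higher, and 9 genes of the other neural lists were higher and 6 lower. With limma on log2(TPM + 1), these were 297 and 920 over all genes, 0 of the 9 higher, and 8 higher and 11 lower in the neural lists. On log2(TPM + 0.1), limma called 533 genes higher, and *Sox1* was at 1.08 (limma adjusted p = 0.0154). Higher genes made up 41.6% of calls in the edgeR fit and 24.4% and 23.1% on these TPM scales, which put the median over all genes at -0.12 and -0.21. At an adjusted p under 0.05 with no fold threshold, 4224 genes were higher and 4515 lower, and 38 and 39 in the neural lists. Adding 1 shrinks by construction the changes of genes near or under 1 TPM, as *Sox1* and *Pax6* are. For *Tubb3* on that scale and *Sox1* on log2(TPM + 0.1), the cause was not tested. Same-numbered libraries share only a number (correlation of their deviations 0.385, 2 pairs), and a block for that number gave 1461 higher and 1956 lower calls over all genes, 3 and 1 among the 9, and changed no call of the 9. Leaving out each library in turn gave 880 to 1514 higher and 1274 to 1893 lower calls over all genes, and 2 or 3 higher and 1 lower among the 9, with the lone library of a group taken to vary like the other group. The counts of *Pax3*, *Sox9*, *Hes5* and *Neurog2* are too low at this depth to show changes of modest size.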
